A study of Homo sapiens with 8 samples.

Results

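The 10 genes described here control the passage of a cell from G1 into S phase, and were chosen by symbol for that role: the cyclins CCND1, CCND3, CCNE1 and CCNE2, the kinases CDK2, CDK4 and CDK6, the inhibitor CDKN1B, the pocket protein RB1 and the transcription factor E2F1. Each matched 1 of the 49733 gene IDs of the series, and all 10 were among the 14746 genes that passed a filter on low counts. The series holds 8 libraries of poly-A RNA from HepG2, an established human line derived from hepatocellular carcinoma, with 2 libraries per group from independent experiments. The cells were at 80% confluence when their medium was replaced. BaP 12 h and BaP 24 h cells received 2 µM benzo[a]pyrene (BaP), a polycyclic hydrocarbon that activates the aryl hydrocarbon receptor and forms DNA adducts once metabolised, and DMSO 12 h and DMSO 24 h cells received the vehicle, 0.5% DMSO. BaP itself was given in DMSO, so the vehicle was common to all 4 groups. These are results of 1 cell line, and 2 libraries per group measure only the spread between those libraries.

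In G1, D-type cyclins bind CDK4 and CDK6 and E-type cyclins bind CDK2, and these kinases phosphorylate the retinoblastoma protein. Phosphorylated retinoblastoma protein releases E2F transcription factors, which switch on the genes of DNA replication and also those of E2F1 and cyclin E. The inhibitor p27 (CDKN1B) binds cyclin E-CDK2, while p21 (CDKN1A), a target of p53, halts the same step after DNA damage. Much of this control acts on protein stability and phosphorylation, which RNA counts do not measure.

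Total estimated counts were 2592272 to 16533490 per library, and the shallowest was BaP 24 h replicate 1. The exposure was visible in CYP1A1, a receptor target that oxidises BaP, with log2 fold changes of 7.66 ± 0.24 at 12 h and 7.74 ± 0.28 at 24 h. All 8 hepatocyte markers were tested and none was called with BaP. Their summed level, in CPM (counts scaled by library depth), was 13064 to 13551 in BaP 12 h and 13303 to 16556 in BaP 24 h libraries, against 14617 to 14865 in DMSO 12 h and 16769 to 19317 in DMSO 24 h libraries, so it was lower in every BaP library than in the DMSO libraries of its time. Of 8 markers of other cell types with an ID, DCN and LUM were at 0 counts in every library and 3 passed the filter. The 8 summed to 56.65 to 69.3 CPM in BaP 12 h and 66.0 to 67.0 CPM in BaP 24 h libraries, against 57.85 to 85.1 CPM in DMSO 12 h and 49.3 to 67.8 CPM in DMSO 24 h libraries. Of the 3 that passed, the monocyte marker CD14 was called higher with BaP at 12 h (log2 fold change 1.04 ± 0.31) and 24 h (1.54 ± 0.32) and the lysosomal marker CD68 at 24 h (0.56 ± 0.13). The fibroblast marker COL1A1 had -1.03 ± 0.65 and -1.90 ± 0.83 and was not called, with 6.75 and 5.15 CPM in BaP 24 h libraries, against 28.3 and 10.5 CPM in DMSO 24 h libraries, and PTPRC had 0 to 2 counts per library, with 0 in both BaP 24 h libraries. CD14 at 12 h lost its call with any of the 4 libraries left out (edgeR adjusted p = 0.14 to 0.37), with no filter (0.068), in the fit of the 12 h libraries alone (0.062) and in DESeq2's Wald test (0.29). At 24 h CD14 lost it without DMSO 24 h replicate 1 (0.17) or DMSO 24 h replicate 2 (0.055), and CD68 without BaP 24 h replicate 2 (0.19), DMSO 24 h replicate 1 (0.17) or DMSO 24 h replicate 2 (0.16). The part of these markers in the results was not tested. In bulk RNA, fewer cells in a phase of the cycle and less RNA per cell cannot be told apart.

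Levels of the 10 genes were compared per transcript length, as TPM (length-corrected transcript abundance, from the deposited fractions), averaged over the 8 libraries with the SD pooled within groups. CDK4 stood at 99.6 ± 5.71 TPM and CCND1, the most abundant G1 cyclin, at 78.9 ± 12.1 TPM. CDK6 at 21.9 ± 2.97, E2F1 at 21.8 ± 1.18, CCNE1 at 21.6 ± 1.52, CCND3 at 17.5 ± 1.49 and CDK2 at 17.1 ± 2.15 TPM formed a middle tier. CDKN1B stood at 11.5 ± 1.66, RB1 at 7.04 ± 1.87 and CCNE2 at 1.30 ± 0.360 TPM. In each of the 4 groups CDK4 had the highest mean, CCND1 the second highest, RB1 the second lowest and CCNE2 the lowest.

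The order inside the middle tier changed by group, so the averages over all libraries do not rank those 5 genes. CCND3 averaged 28.2 ± 0.197 TPM in BaP 12 h and 14.9 ± 1.24 TPM in BaP 24 h libraries, against 16.5 ± 1.41 TPM in DMSO 12 h and 10.5 ± 2.30 TPM in DMSO 24 h libraries (SD, n = 2 each). CDK2 averaged 18.9 ± 0.335 TPM in BaP 12 h and 13.1 ± 4.08 TPM in BaP 24 h libraries, against 21.6 ± 0.0659 TPM in DMSO 12 h and 14.8 ± 1.33 TPM in DMSO 24 h libraries. CCND3 therefore stood above CDK2 in BaP 12 h libraries by more than their SDs, below it in both DMSO groups by more than their SDs, and within the spread in BaP 24 h libraries. In DMSO 24 h libraries the mean of CCND3 was also below that of CDKN1B, at 12.6 ± 0.854 TPM, though within the spread. CCNE2 had few counts, at 3 to 42 per library, and was at the floor of 3 counts only in BaP 24 h replicate 1.

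**Figure D1:**
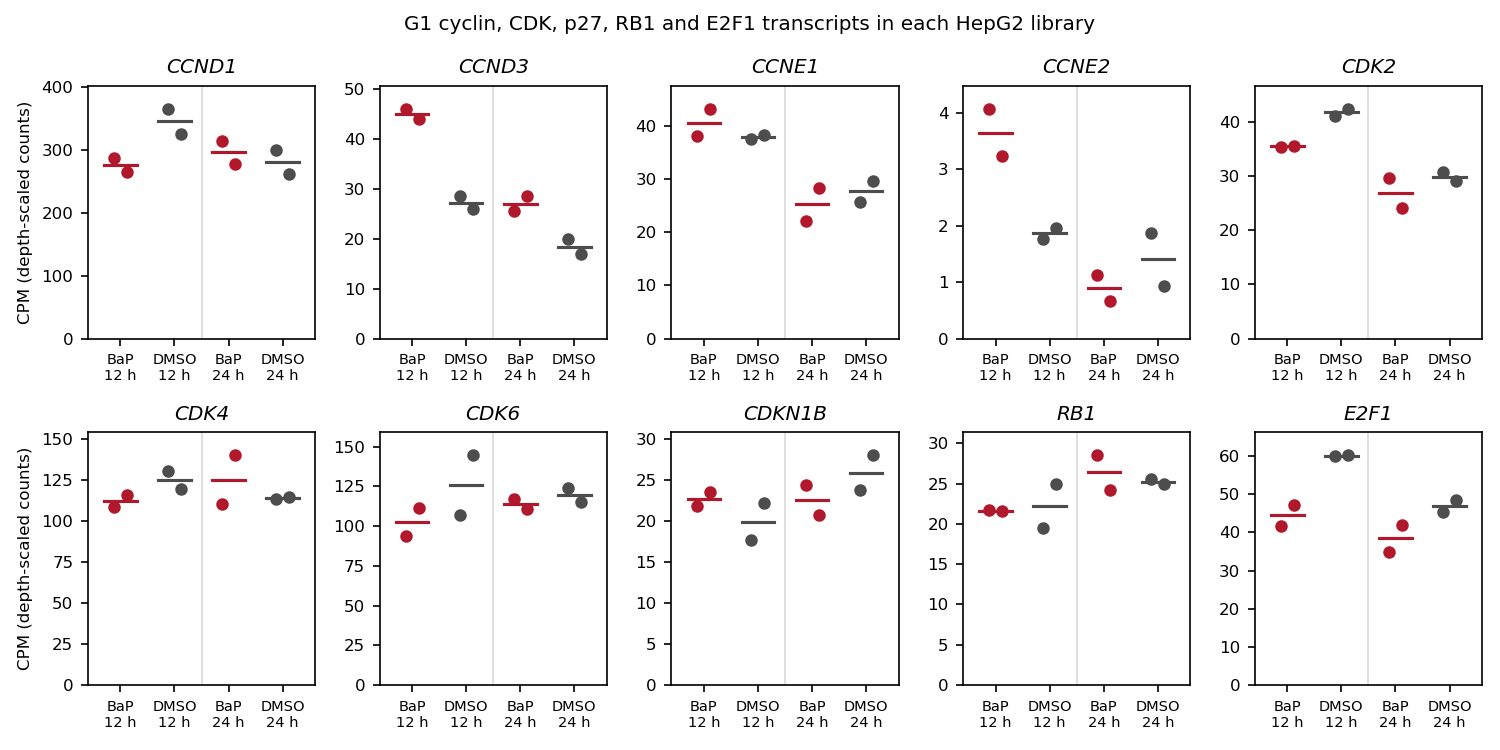
Level of each of the 10 genes in every library, in CPM on axes that start at 0; points are libraries, lines are means of 2, red is BaP and grey DMSO. CCND3 lies higher in both BaP libraries at each time, and E2F1 lies lower in both, with 44.5 CPM in BaP 12 h and 60.1 CPM in DMSO 12 h libraries on average.

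The comparison at 12 h asked how BaP changed these transcripts against DMSO of the same hour. CCND3 rose and E2F1 fell, and the other 8 genes were not called (edgeR quasi-likelihood test, adjusted p under 0.05 over all genes). Over all genes tested, 8.25% were called at 12 h, 3.41% higher and 4.84% lower, a background from which so few genes cannot set 2 of 10 apart. The members' median log2 fold change was -0.10, beside 0.02 for all genes. Libraries of the groups did not overlap for 6 members, with CCND3 and CCNE2 higher and CCND1, CDK2, CDK4 and E2F1 lower, while 49.3% of all genes had no overlap.

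Among the D-type cyclins, which carry growth signals into the cycle, CCND3 (ENSG00000112576) had 45.9 and 44.0 CPM in BaP 12 h libraries, against 28.6 and 25.9 CPM in DMSO 12 h libraries. Both BaP values lay far above both DMSO values. The log2 fold change was 0.72 ± 0.13 (SE, n = 2 per group, edgeR adjusted p = 0.002), and it was called in 11 of 11 alternative settings, with an adjusted p of 0.0073 to 0.045 when single libraries were left out. CCND1 (ENSG00000110092) had 287 and 265 CPM in BaP 12 h libraries, against 365.5 and 326 CPM in DMSO 12 h libraries. The 2 groups did not overlap, but the log2 fold change of -0.33 ± 0.13 was not called (edgeR adjusted p = 0.16), except in the fit of the 12 h libraries alone (edgeR adjusted p = 0.05). The 2 D-type cyclins thus had opposite signs, and the difference between them was not tested.

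CCND3 lies on chromosome 6 (41934933 to 42050357, minus strand, GRCh38), and its transcript CCND3-203 held 88.5% of its counts. That transcript spans 6.92 kb, against 115 kb for the whole gene. The promoter window nearest to its start (RefSeq, GRCh38.p14, chr6:41941759-41942058, minus strand) is shown as that of the member whose change was called at both times, and no base is in capitals because neither motif searched was found.
CCND3: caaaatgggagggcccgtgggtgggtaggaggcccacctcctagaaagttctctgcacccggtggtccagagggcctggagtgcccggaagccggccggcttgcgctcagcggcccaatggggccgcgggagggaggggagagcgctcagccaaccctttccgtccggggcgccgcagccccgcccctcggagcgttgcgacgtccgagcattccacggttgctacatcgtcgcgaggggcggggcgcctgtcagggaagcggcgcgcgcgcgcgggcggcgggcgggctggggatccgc
The motifs were the core of the receptor's response element (TNGCGTG) and the E2F sites TTTCCCGC, TTTCGCGC, TTTGCCGC and TTTGGCGC, each on both strands, where matches may overlap. The core occurs in 5.51% and an E2F site in 3.31% of 35116 such windows of 300 bases, and no match says only that these letters are not in this window.

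The E-type cyclins, which activate CDK2 late in G1, were not called at 12 h. CCNE1 (ENSG00000105173) had 38.0 and 43.1 CPM in BaP 12 h libraries and 37.4 and 38.3 CPM in DMSO 12 h libraries, with overlap and a log2 fold change of 0.10 ± 0.14. CCNE2 (ENSG00000175305) had 4.07 and 3.23 CPM in BaP 12 h libraries, from 35 and 42 counts, and 1.77 and 1.96 CPM in DMSO 12 h libraries, from 24 and 28 counts. Both BaP values were higher, but at this depth the log2 fold change of 0.95 ± 0.35 was not called (edgeR adjusted p = 0.12).

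The 3 kinases had negative log2 fold changes at 12 h that were smaller than could be called. CDK2 (ENSG00000123374), the partner of cyclin E, had 35.5 and 35.6 CPM in BaP 12 h libraries, against 41.2 and 42.5 CPM in DMSO 12 h libraries (log2 fold change -0.24 ± 0.13, edgeR adjusted p = 0.34). CDK4 (ENSG00000135446), a partner of cyclin D, had 109 and 116 CPM in BaP 12 h libraries and 130.5 and 119.8 CPM in DMSO 12 h libraries (-0.15 ± 0.12). CDK6 (ENSG00000105810), the other cyclin D kinase, had 93.9 and 111 CPM in BaP 12 h libraries and 107 and 144 CPM in DMSO 12 h libraries, which overlap (-0.29 ± 0.14). CDKN1B (ENSG00000111276) had 21.7 and 23.6 CPM in BaP 12 h libraries and 17.6 and 22.2 CPM in DMSO 12 h libraries, again with overlap (0.19 ± 0.16).

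RB1 (ENSG00000139687), which holds E2F factors in check, had 21.7 and 21.6 CPM in BaP 12 h libraries and 19.6 and 25.01 CPM in DMSO 12 h libraries, so the groups overlap (log2 fold change -0.04 ± 0.15, edgeR adjusted p = 0.93). E2F1 (ENSG00000101412), the activator that RB1 binds, had 41.7 and 47.3 CPM in BaP 12 h libraries, against 60.1 and 60.2 CPM in DMSO 12 h libraries. Every BaP value was lower than every DMSO value, and the DMSO libraries hardly differed. The log2 fold change was -0.43 ± 0.12 (SE, n = 2 per group, edgeR adjusted p = 0.041). This call was lost when BaP 12 h replicate 1 (adjusted p = 0.39), BaP 12 h replicate 2 (0.1), DMSO 12 h replicate 1 (0.13) or DMSO 12 h replicate 2 (0.099) was left out, in DESeq2's Wald test (0.11) and in libraries thinned to equal depth (0.088), while the sign stayed negative in all 11 alternatives.

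E2F1 lies on chromosome 20 (33675683 to 33686404, minus strand, GRCh38), and E2F1-201 held 100% of its counts. Its promoter is known to be bound by E2F factors. The window of E2F1 (RefSeq, GRCh38.p14, chr20:33686336-33686635, minus strand) is shown because E2F1 was called lower at 12 h in the main fit. The cause of that change was not tested. Capitals mark 2 matches to the E2F sites, whose first bases are at -33 and -20 from the window's start site. E2F1-201 itself starts at -19 on that scale.
E2F1: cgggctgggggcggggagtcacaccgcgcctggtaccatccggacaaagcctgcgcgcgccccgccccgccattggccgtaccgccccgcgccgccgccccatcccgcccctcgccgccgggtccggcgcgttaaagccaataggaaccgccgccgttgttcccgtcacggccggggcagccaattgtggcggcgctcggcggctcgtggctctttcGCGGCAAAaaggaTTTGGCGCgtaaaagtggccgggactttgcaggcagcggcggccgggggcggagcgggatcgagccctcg
Of the 10 genes, 7 had a window in the table, but that of RB1 lies far from the start of its main transcript and says nothing of that start. Among the other 6, E2F1 was the 1 with an E2F match. The CCNE1 window ends before the start of CCNE1-203, which lies 663 bases past the window's start site. CDK4-201 starts at -211 and CDKN1B-201 at -244 in their windows, so little sequence upstream of those starts was searched. CDKN1B was the 1 with the receptor core, at -185 from the window's start site (CACGCGA, the core read on the other strand). That match lies downstream of the start of CDKN1B-201 at -244. Among genes on the list of E2F targets of S phase, 15 of 25 with a window had an E2F match, against 3.99% of all 27305 genes with a window. A match is a description of letters and was not tested as a site.

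**Figure D2:**
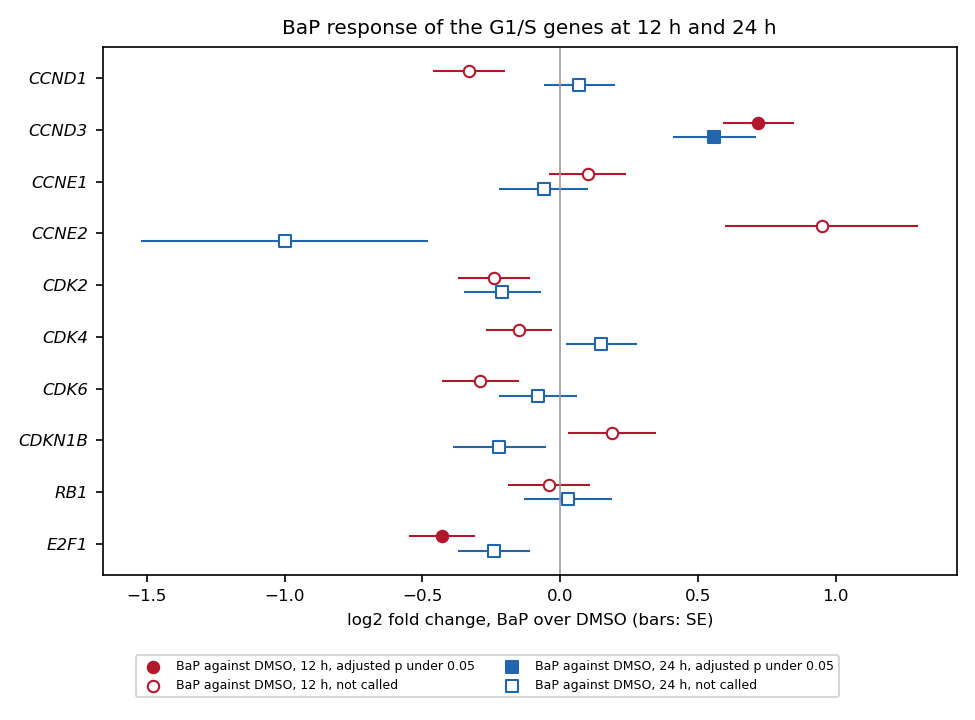
Log2 fold change of each gene, BaP over DMSO, with its SE; circles are 12 h and squares 24 h, filled where the adjusted p is under 0.05. CCND3 is filled at both times (0.72 and 0.56), E2F1 at 12 h (-0.43) but not at 24 h (-0.24), and the widest bars belong to CCNE2.

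At 24 h the comparison asked the same of a longer exposure, against DMSO libraries of its own. CCND3 was again higher, and the other 9 genes were not called, beside 5.3% of all genes (3.11% higher, 2.2% lower). The members' median log2 fold change was -0.07, against 0.01 for all genes. Libraries did not overlap for CCND3, which was higher, and for E2F1, which was lower, while 47.2% of all genes had no overlap.

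CCND3 had 25.5 and 28.4 CPM in BaP 24 h libraries, against 19.9 and 16.9 CPM in DMSO 24 h libraries. Both BaP values exceeded both DMSO values, by less than at 12 h. The log2 fold change was 0.56 ± 0.15 (SE, n = 2 per group, edgeR adjusted p = 0.042). It was called in 5 of 11 alternatives and had the same sign in all 11. The adjusted p was 0.39 without BaP 24 h replicate 2, 0.15 without DMSO 24 h replicate 1, 0.31 without DMSO 24 h replicate 2, 0.13 in DESeq2's Wald test, 0.1 in the fit of the 24 h libraries alone and 0.23 at equal depth. CCND1 had 315 and 277 CPM in BaP 24 h libraries and 299.8 and 261 CPM in DMSO 24 h libraries, with overlap (log2 fold change 0.07 ± 0.13).

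CCNE1 had 22.1 and 28.3 CPM in BaP 24 h libraries and 25.6 and 29.6 CPM in DMSO 24 h libraries (log2 fold change -0.06 ± 0.16). CCNE2 was near the floor of the assay, with 3 and 10 counts in BaP 24 h libraries and 22 and 5 counts in DMSO 24 h libraries, and its groups overlap at 1.125 and 0.669 CPM with BaP, against 1.87 and 0.938 CPM with DMSO. Its log2 fold change of -1.0 ± 0.52 was not called (edgeR adjusted p = 0.3), and a count of 3 in the shallowest library is worth 1.125 CPM. The 2 DMSO 24 h libraries also differed from each other, and the size of difference that could be detected in CCNE2 was not tested.

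The kinases stayed within their spread at 24 h. CDK2 had 29.6 and 24.2 CPM in BaP 24 h libraries and 30.7 and 29.1 CPM in DMSO 24 h libraries (log2 fold change -0.21 ± 0.14). CDK4 had 110.3 and 140.0 CPM in BaP 24 h libraries, the wider pair, and 113 and 115 CPM in DMSO 24 h libraries (0.15 ± 0.13). CDK6 had 117 and 111 CPM in BaP 24 h libraries and 124 and 115 CPM in DMSO 24 h libraries (-0.08 ± 0.14). All 3 pairs of groups overlap.

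CDKN1B had 24.4 and 20.7 CPM in BaP 24 h libraries and 23.7 and 27.9 CPM in DMSO 24 h libraries, with a log2 fold change of -0.22 ± 0.17 whose sign differs from that at 12 h. RB1 had 28.5 and 24.3 CPM in BaP 24 h libraries and 25.6 and 24.9 CPM in DMSO 24 h libraries (0.03 ± 0.16). Neither gene separated the groups. E2F1 had 34.9 and 42.0 CPM in BaP 24 h libraries, against 45.3 and 48.4 CPM in DMSO 24 h libraries. Both BaP values were lower, but the log2 fold change of -0.24 ± 0.13 was not called (edgeR adjusted p = 0.33).

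Whether the BaP response itself changed between the times was tested as the response at 24 h minus that at 12 h, from 4 libraries each. None of the 10 genes was called, beside 0.543% of all genes (0.461% higher, 0.0814% lower), and DESeq2 called 0 as well. In edgeR's quasi-likelihood fit, 2 of the 10 had an unadjusted p under 0.05, CCNE2 at 0.0063 and CCND1 at 0.047, with neither adjusted p under the threshold. CCNE2 had the largest difference in size, -1.95 ± 0.62 on the log2 scale (edgeR adjusted p = 0.25), since its BaP libraries were the higher ones at 12 h and its sign turned at 24 h. CCND1 had 0.40 ± 0.19 (edgeR adjusted p = 0.52) and CDKN1B -0.41 ± 0.23 (0.62). For CCND3 the difference was -0.16 ± 0.20 (0.85) and for E2F1 0.19 ± 0.18 (0.8). E2F1 therefore passed the threshold at 12 h and not at 24 h without a difference between the times that could be called.

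Culture time without BaP was read from DMSO 24 h against DMSO 12 h, which shares its libraries with the comparisons above. CCND3 fell, with 19.9 and 16.9 CPM in DMSO 24 h libraries, against 28.6 and 25.9 CPM in DMSO 12 h libraries. The log2 fold change was -0.55 ± 0.14 (edgeR adjusted p = 0.048), the 1 call among the 10 genes, beside 3.28% of all genes (2.27% higher, 1.01% lower). It was lost whichever single library was left out, with an adjusted p of 0.18 without DMSO 12 h replicate 1, 0.065 without DMSO 12 h replicate 2, 0.15 without DMSO 24 h replicate 1 and 0.47 without DMSO 24 h replicate 2. With BaP, CCND3 was lower at the later time too, with 25.5 and 28.4 CPM in BaP 24 h libraries, against 45.9 and 44.0 CPM in BaP 12 h libraries. BaP 24 h against BaP 12 h was not tested by itself.

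The members' median over DMSO time was -0.29, against 0.01 for all genes, and libraries did not overlap for 7 members, beside 48.6% of all genes (25.3% higher, 23.3% lower). CCND1, CCND3, CCNE1, CDK2, CDK4 and E2F1 were lower in both DMSO 24 h libraries and CDKN1B was higher. CDK2 had 30.7 and 29.1 CPM in DMSO 24 h libraries, against 41.2 and 42.5 CPM in DMSO 12 h libraries (log2 fold change -0.48 ± 0.13, edgeR adjusted p = 0.058). CCNE1 had 25.6 and 29.6 CPM in DMSO 24 h libraries, against 37.4 and 38.3 CPM in DMSO 12 h libraries (-0.47 ± 0.14, 0.093). Both CDK2 and CCNE1 were called lower over DMSO time with no filter on low counts (edgeR adjusted p = 0.024 and 0.035) and in the fit of the DMSO libraries alone (0.024 and 0.036). Each was called in only these 2 of 11 alternatives. E2F1 was at -0.37 ± 0.13 (edgeR adjusted p = 0.14) and the inhibitor CDKN1B at 0.36 ± 0.16 (0.27), neither called.

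The genes around these 10 were described through 5 lists. At 12 h, 1 of 27 tested E2F targets of S phase was called higher and 3 lower, with a median log2 fold change of -0.15, beside 3.41% and 4.84% of all genes and their median of 0.02. RRM2, a subunit of ribonucleotide reductase, was higher at 0.51 ± 0.12, and MCM3 (-0.51 ± 0.12), MCM6 (-0.49 ± 0.14) and the DNA polymerase alpha subunit POLA1 (-0.68 ± 0.15) were lower, of which POLA1 is named by rule and the others were named after their values were seen. POLA1 had 14.8 and 15.4 CPM in BaP 12 h libraries, against 23.2 and 25.2 CPM in DMSO 12 h libraries (edgeR adjusted p = 0.0094, but 0.12 and 0.077 when the first or the second BaP 12 h library was left out). Leaving out either BaP 12 h library gave 0 called in each direction, and there were 0 higher and 2 lower without DMSO 12 h replicate 1, and 1 in each direction at equal depth. With no filter 1 was called higher and 6 lower, and in the fit of the 12 h libraries alone 1 higher and 8 lower. RRM2 therefore moved against most of its list, of which 20 of 27 had negative log2 fold changes.

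By 24 h, 0 of the 27 E2F targets were called higher and 4 lower, beside 3.11% and 2.2% of all genes, and 24 had negative log2 fold changes, with a median of -0.23. The helicase subunit MCM2 had 81.8 and 91.2 CPM in BaP 24 h libraries, against 151 and 139 CPM in DMSO 24 h libraries (log2 fold change -0.73 ± 0.12, edgeR adjusted p = 0.002, and 0.055 without DMSO 24 h replicate 1). UNG, which removes uracil from DNA, had 24.8 and 22.95 CPM in BaP 24 h libraries, against 39.5 and 39.2 CPM in DMSO 24 h libraries (-0.74 ± 0.15, edgeR adjusted p = 0.0071, but 0.11 without BaP 24 h replicate 2, 0.087 without DMSO 24 h replicate 1 and 0.052 without DMSO 24 h replicate 2). The helicase subunits MCM4 (-0.58 ± 0.13) and MCM5 (-0.52 ± 0.13), the second named after its values were seen, made up the 4. Without BaP 24 h replicate 2 or DMSO 24 h replicate 2 the count of lower genes was 1, without DMSO 24 h replicate 1 it was 0, and at equal depth it was 2. Over DMSO time 0 rose and 15 of 27 fell, beside 2.27% and 1.01% of all genes, with a median of -0.51 and all 27 negative. At equal depth 9 were called lower, and 6 were so without DMSO 12 h replicate 1, 8 without DMSO 12 h replicate 2, 4 without DMSO 24 h replicate 1 and 1 without DMSO 24 h replicate 2. With no filter 19 were called lower, and in the fit of the DMSO libraries alone 20. Among the 15 of the main fit were MCM4 (-0.87 ± 0.12), UNG (-0.64 ± 0.13) and MCM2 (-0.51 ± 0.12). These 3 genes were thus lower with time in DMSO and lower again with BaP at 24 h, in comparisons that share the DMSO 24 h libraries.

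**Figure D3:**
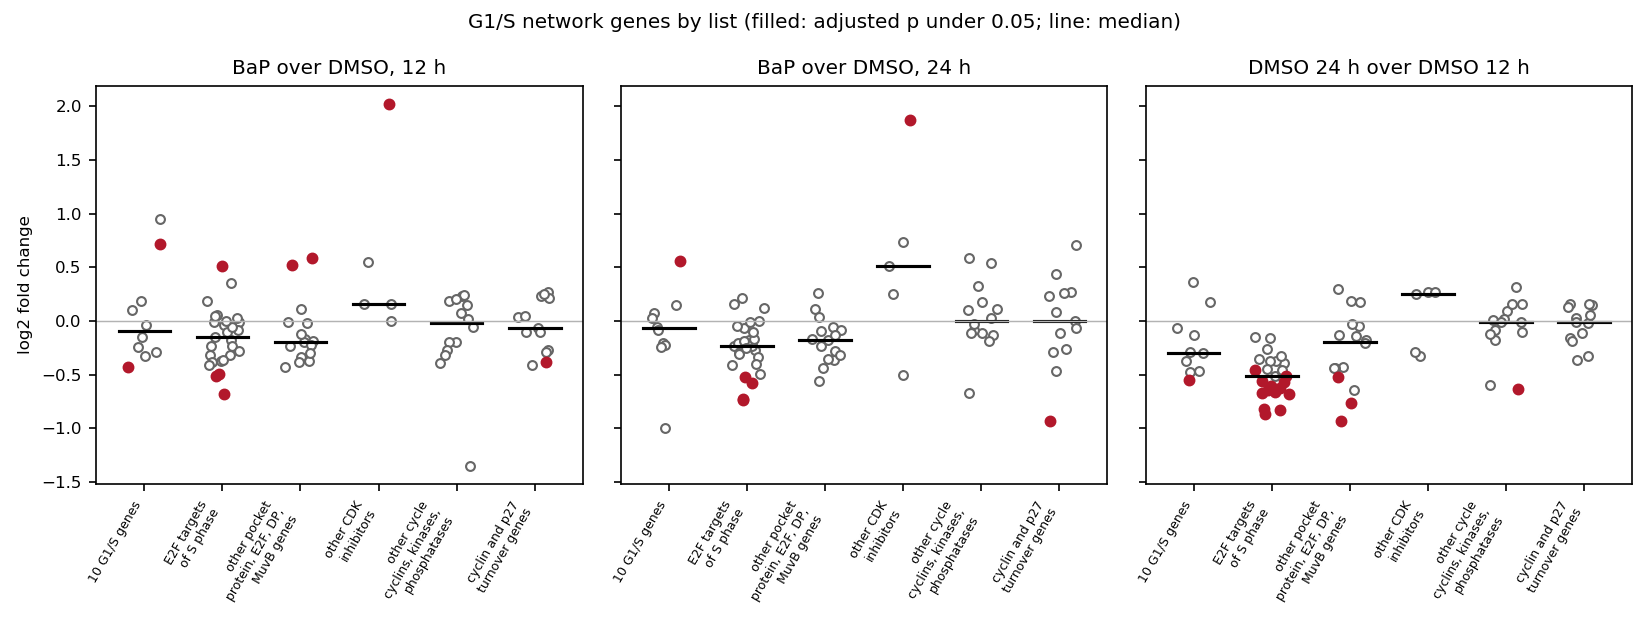
Log2 fold changes of the 10 genes and of the 5 lists around them at 12 h, at 24 h and over DMSO time; each point is a gene, filled where the adjusted p is under 0.05, and lines are list medians. The point near 2 in both BaP panels is CDKN1A, and the E2F targets of S phase lie below 0 over DMSO time with a median of -0.51.

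Of 16 tested pocket proteins, E2F, DP and MuvB genes beside RB1 and E2F1, 2 were higher with BaP at 12 h and 0 lower, and none was called at 24 h, beside 3.41% of all genes higher and 4.84% lower at 12 h and 5.3% called at 24 h. The list's median log2 fold changes were -0.20 and -0.17, against 0.02 and 0.01 for all genes. The 2 called were E2F7 and E2F6. E2F7 had 29.4 and 28.5 CPM in BaP 12 h libraries, against 18 and 20.4 CPM in DMSO 12 h libraries (log2 fold change 0.59 ± 0.14, edgeR adjusted p = 0.016). E2F6 had 28.95 and 27.9 CPM in BaP 12 h libraries, against 20.5 and 19.0 CPM in DMSO 12 h libraries (0.52 ± 0.15, edgeR adjusted p = 0.043). For E2F7 the call ended when BaP 12 h replicate 1 (edgeR adjusted p = 0.15), BaP 12 h replicate 2 (0.11) or DMSO 12 h replicate 1 (0.1) was left out, and for E2F6 it ended without BaP 12 h replicate 1 (0.27), BaP 12 h replicate 2 (0.2), DMSO 12 h replicate 1 (0.087) or DMSO 12 h replicate 2 (0.18). Both calls were also lost in DESeq2's Wald test (0.089 for E2F7, 0.15 for E2F6) and at equal depth (0.16 and 0.28). E2F1 and these 2 family members thus had opposite signs at 12 h. The other E2F genes on the list were not called at 12 h: E2F2 (-0.43 ± 0.17), E2F3 (-0.17 ± 0.15), E2F4 (-0.19 ± 0.12), E2F5 (-0.20 ± 0.21) and E2F8 (0.11 ± 0.16). The pocket protein RBL2 (-0.38 ± 0.13, edgeR adjusted p = 0.085) and the MuvB partner MYBL2 (-0.23 ± 0.12) were not called, and over DMSO time 3 of the 16 fell (E2F2, E2F7 and MYBL2, beside 1.01% of all genes), with 2 called without DMSO 12 h replicate 1, 1 without DMSO 12 h replicate 2 and 0 without either DMSO 24 h library.

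CDK inhibitors beside CDKN1B differed in level and in response. CDKN1A had 421 and 369 CPM in BaP 12 h libraries, against 113 and 81.7 CPM in DMSO 12 h libraries (log2 fold change 2.02 ± 0.15, edgeR adjusted p = 2.3e-07). At 24 h it had 409.7 and 451 CPM with BaP, against 119.5 and 116 CPM with DMSO (1.87 ± 0.15, edgeR adjusted p = 2.3e-06). No other inhibitor was called: CDKN2A (p16 and ARF) had log2 fold changes of 0.55 ± 0.30 and 0.74 ± 0.32, CDKN2B (p15) 0.16 ± 0.33 and 0.51 ± 0.35, CDKN2C (p18) 0.00 ± 0.17 and -0.50 ± 0.21, and CDKN2D (p19) 0.16 ± 0.28 and 0.25 ± 0.33 at 12 h and 24 h. CDKN1C (p57) had 0 counts in every library, which allows up to 0.201 CPM in the deepest and 1.125 CPM in the shallowest. CDKN1B and CDKN1A, which bind the same kinases, therefore stood apart in call, and the difference between them was not tested.

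None of 14 further cyclins, kinases and phosphatases of the cycle was called with BaP at either time, beside 8.25% of all genes at 12 h and 5.3% at 24 h. The 4 with the smallest p were CCND2, the third D-type cyclin (-1.35 ± 0.48 at 12 h, with 0.616 to 3.76 CPM in the 12 h libraries), the mitotic cyclin CCNB2 (-0.39 ± 0.14 at 12 h), CCNH of the CDK-activating kinase (0.54 ± 0.16 at 24 h) and CDK3 (0.59 ± 0.28 at 24 h). With no filter and in the fit of the 12 h libraries alone, CCND2 (edgeR adjusted p = 0.02 and 0.031) and CCNB2 (0.044 and 0.019) were called lower at 12 h, and CCND2 also without BaP 12 h replicate 1 (0.039), while CCNH was called higher at 24 h without BaP 24 h replicate 1 (0.022). The list's median log2 fold changes were -0.02 at 12 h and 0.00 at 24 h. Among 13 genes that control the turnover of cyclins D and E or p27, 1 was lower at 12 h and 1 at 24 h. Of all genes, 4.84% and 2.2% were called lower, and 1 gene is too few to set the list apart from them. FBXO31, an F-box protein that targets cyclin D1, had 73.7 and 77.1 CPM in BaP 12 h libraries, against 101.8 and 94.2 CPM in DMSO 12 h libraries (log2 fold change -0.38 ± 0.11, edgeR adjusted p = 0.04, but 0.052 to 0.34 with any 1 of the 4 libraries left out, 0.077 in DESeq2's Wald test and 0.081 at equal depth). SKP2, the F-box protein that marks p27 for destruction, had 20.3 and 21.7 CPM in BaP 24 h libraries, against 41.9 and 38.6 CPM in DMSO 24 h libraries (-0.93 ± 0.18, edgeR adjusted p = 0.0077, but 0.095 without BaP 24 h replicate 2 and 0.1 without DMSO 24 h replicate 1). SKP1 (0.27 ± 0.14 and 0.44 ± 0.15) and FBXW7, which marks cyclin E (0.23 ± 0.21 and 0.71 ± 0.24), were not called at either time, though SKP1 was at 24 h with no filter (edgeR adjusted p = 0.044) and without BaP 24 h replicate 1 (0.00083). For the response at 24 h minus that at 12 h, none of the 5 lists held a called gene.

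Patterns over the 8 libraries were compared with 10006 genes of at least 5 CPM on average, as a description across libraries that share groups. CCND3 was most like SLC2A8, a glucose transporter (Pearson r = 0.993 of log2 CPM), ALAS1, the first enzyme of haem synthesis (0.990), and PNP, a purine phosphorylase (0.985). Their log2 fold changes at 12 h were 0.83, 0.56 and 0.49, and at 24 h 0.62, 0.35 and 0.47. E2F1 was most like the helicase genes MCM3 (0.971) and MCM7 (0.971) and the S phase cyclin CCNA2 (0.960). Some 37 genes had an r over 0.95 with CCND3 and 10 with E2F1.

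Transcript estimates were compared for CCNE1 and CCNE2, the 2 genes of the 10 with more than 1 transcript of at least 10% of counts. CCNE1-202 took 36.2% and 34.6% of CCNE1 counts in BaP 12 h libraries, against 13.7% and 4.58% in DMSO 12 h libraries. CCNE1-201 was estimated at 0% in both BaP 12 h libraries, against 16.7% and 18.5% in DMSO 12 h libraries, and CCNE1-203 held 63.8% and 65.4% with BaP, against 69.7% and 76.9% with DMSO. The shares did not overlap at 12 h. The usage test held only transcripts of at least 10% of counts, so CCNE1-201, at 7.3% over all libraries, was not in it. Between CCNE1-203 and CCNE1-202, usage was not called at 12 h (edgeR gene-level F-test, adjusted p = 0.48, with 0.0071 before adjustment), beside 0.32% of 6868 genes. At 24 h CCNE1-202 held 19.3% and 24.0% in BaP 24 h libraries and 12.2% and 18.9% in DMSO 24 h libraries (adjusted p = 0.86, beside 0.859% of genes). A share of 0% is an RSEM estimate and does not show that no read came from that transcript. CCNE2 usage was not called either (adjusted p = 1 at 12 h and 0.71 at 24 h).

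**Figure D4:**
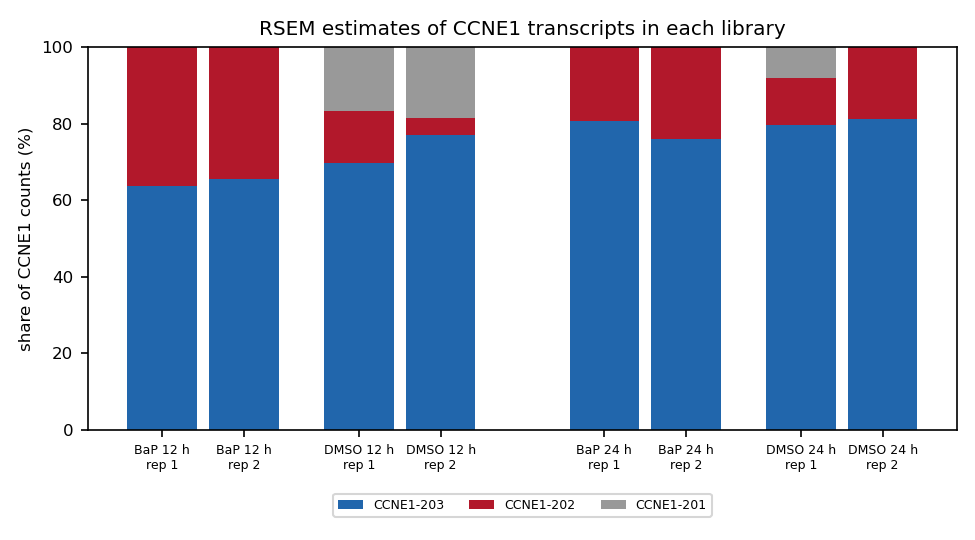
Share of CCNE1 counts that RSEM gave to each of 3 transcripts, in percent, in every library. The CCNE1-202 share is 36.2% and 34.6% in BaP 12 h libraries, above all others. CCNE1-201 is at 0% in every BaP library, but also at 0.0127% in DMSO 24 h replicate 2, with 8.15% in DMSO 24 h replicate 1.

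Genomic span was set beside the responses, because at 12 h longer genes had lower log2 fold changes with BaP. The 6888 genes up to 30 kb had a median of 0.07, against -0.09 where the span was 100 to 200 kb (n = 1473) and -0.29 where it was 200 to 300 kb (n = 442). Beyond 500 kb, 124 genes had a median of -0.95. CDK6 (232 kb) had -0.29, the same as the median of its class, and RB1 (296 kb, with 178 kb for its main transcript) had -0.04. CCND3 counted as 115 kb falls in a class with 25 genes higher and 166 lower, but its main transcript is short, as given above. E2F1 (10.7 kb), CCND1 (13.4 kb), CDK2 (6.02 kb) and CDK4 (8.29 kb) were lower than the median of short genes. CCNE1 (12.4 kb, 0.10), CDKN1B (7.31 kb, 0.19) and CCNE2 (16.9 kb, 0.95) were above it. By 24 h the gradient was shallower, with a median of -0.12 for 200 to 300 kb and -0.34 over 500 kb.

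**Figure D5:**
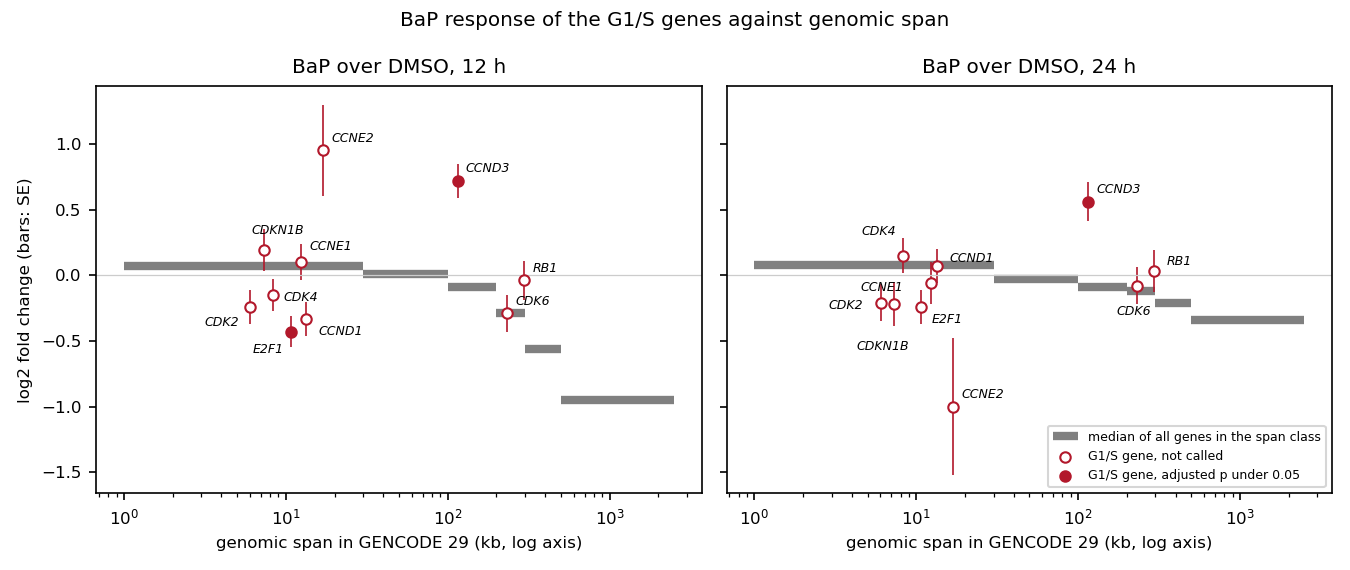
Log2 fold change with its SE against the span of each gene (GENCODE 29, log axis), with the median of all genes in each span class as grey bars. CDK6 lies on the median of its class at 12 h (-0.29), and CCND3 lies above its class at both times.

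The other 8 genes lie at these GRCh38 positions. CCND1 is on chromosome 11 (69641087 to 69654474, plus strand), CCNE1 on chromosome 19 (29811898 to 29824308, plus strand) and CCNE2 on chromosome 8 (94879770 to 94896678, minus strand). Chromosome 12 holds CDK2 (55966769 to 55972784, plus strand), CDK4 (57747727 to 57756013, minus strand) and CDKN1B (12715058 to 12722371, plus strand). CDK6 is on chromosome 7 (92604921 to 92836594, minus strand) and RB1 on chromosome 13 (48303726 to 48599436, plus strand). Some exons overlap genes on the other strand, and the sources used here do not state that strand was used in counting, so reads there cannot be told apart. TSPAN31 covers 43.2% of the exonic bases of CDK4, INTS8 covers 37% of those of CCNE2, AC025162.1 covers 14.5% of those of CDK2 and LTO1 covers 10.3% of those of CCND1. CCND3 has 0.414% and CDK6 0.661% in such an overlap, and CCNE1, CDKN1B, RB1 and E2F1 have none.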

How the data were processed

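Gene-level and transcript-level results for 8 libraries of HepG2 poly-A RNA were analysed. The authors aligned reads with Bowtie 0.12.7 and estimated abundance with RSEM 1.1.7, and edgeR is named without a version, per the submitters' processing notes. The annotation was Ensembl release 58, as named in the deposited files. Its build, like the use of strand, is not given in the sources. The deposited expected counts are not normalised, and the deposited fractions are the authors' length-corrected shares of all transcripts, scaled here to TPM. Groups followed the labels.

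Expected counts were rounded to whole numbers. In R 4.3.3 with edgeR 4.0.16, genes passing filterByExpr (minimum count 10, minimum total 15) were scaled by TMM, and 1 robust quasi-likelihood model with a mean per group was fitted to all 8 libraries. Tests were two-sided, p-values had Benjamini-Hochberg adjustment across 14746 genes with a threshold of 0.05, and the SE is the log2 fold change divided by the square root of F. CPM used the scaled library sizes. Depth was 2592272 to 16533490 counts, and 3 counts equal 1.125 CPM in the shallowest library and 0.201 CPM in the deepest. The floors cover counting error only, while the SE and SD also take in the spread between libraries. Scripts were tested on simulated data.

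The members and lists were chosen with earlier results of these data known. Besides the 10 genes, the text names up to 4 genes per list with the smallest p over both BaP comparisons, every other CDK inhibitor, CYP1A1, and for each called member the 3 genes with the most similar profile. Of 96 genes on the other lists, 3 (LIN37, UHRF1 and PECAM1) matched no ID by symbol, and 70.1% of the 49733 IDs, holding 95.9% of counts, had a name. Spans, exon overlaps and positions are from GENCODE 29 (GRCh38), matched by gene ID, and promoter windows from RefSeq (GRCh38.p14). Alternatives were DESeq2 1.42.0 size factors and Wald test, no filter (minimum total 1), a replicate block, RSEM posterior means, libraries thinned to 2592234 counts (1 draw), a fit of each comparison's own libraries, and omission of single libraries.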

Additional observations from a re-analysis of the deposited data

How the results depend on the processing

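CCND3 at 12 h was called in 11 of 11 alternatives. With DESeq2's Wald test 794 genes were called at 12 h in place of 1216, and at equal depth 615. At 24 h, in place of 782, there were 1238 with no filter, 392 at equal depth and 379 in the fit of the 24 h libraries alone. For the difference between the times, no filter gave 240 and equal depth 39 in place of 80. For DMSO time, in place of 483, there were 805 with no filter, 300 at equal depth and 853 in the fit of the DMSO libraries alone. Leaving out 1 library gave 424 to 883 genes at 12 h, 169 to 1956 at 24 h, 28 to 348 for the difference and 87 to 232 over DMSO time. The cause was not tested, beyond the fewer libraries or reads that some settings hold by construction.

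Of the 10 genes, 1 was called lower at 12 h, with 0 in DESeq2, 0 at equal depth, 0 with any library left out and 2 in the fit of the 12 h libraries alone. At 24 h 1 was called higher, with 0 in DESeq2, 0 at equal depth, 0 in the fit of the 24 h libraries alone and 0 to 1 with a library left out. Over DMSO time 1 was called lower, with 3 under no filter, 3 in the fit of the DMSO libraries alone, and 0 in DESeq2, at equal depth or with any library left out. RSEM posterior means moved the TPM of CCND1 to 63.94, CCND3 to 19.7, CCNE1 to 17.85, CDK2 to 14.17, CDK4 to 81.87 and E2F1 to 18.08. Genes with called transcript usage numbered 13 with the Simes test in place of 22 at 12 h, and 22 in place of 59 at 24 h, with 23 to 43 and 57 to 633 when a library was left out.

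Signs turned among values that were not called. Over the libraries left out at 12 h, log2 fold changes were -0.01 to 0.19 for CCNE1, -0.20 to 0.13 for RB1, -0.22 to 0.18 for CDK3 and -0.14 to 0.51 for CDKN2D, which was -0.04 at equal depth. At 24 h they were -0.02 to 0.17 for CCND1, -0.31 to 0.05 for CCNE1, -0.05 to 0.29 for CDK4, -0.06 to 0.17 for RB1, -1.04 to 0.23 for CCND2, -0.42 to 0.10 for CCNB2, -0.19 to 0.37 for CDKN2D, -0.09 to 0.41 for E2F6 and -0.04 to 0.15 for E2F7, which was -0.32 at equal depth. The difference between the times was -0.07 to 0.21 for CDK2 and -0.11 to 0.22 for RB1, and DMSO time gave -0.27 to 0.14 for CDK6.

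Same-numbered libraries did not deviate together throughout: the correlation of deviations was 0.424 between BaP 12 h and DMSO 12 h, but 0.064 between BaP 24 h and DMSO 24 h, so the numbers were not taken as pairs. With the replicate block, 1229 genes were called at 12 h, 738 at 24 h, 80 for the difference and 479 over DMSO time, and transcript usage gave 2 at 12 h and 26 at 24 h. Under the block CCND3 had log2 fold changes of 0.73 (edgeR adjusted p = 0.003) and 0.58 (0.045), and E2F1 -0.44 at 12 h (0.035). CCND3 over DMSO time was no longer called (0.052), leaving 0 of the 10 genes, nor were E2F6 (0.051) and CD14 (0.057) at 12 h. CCND2 (-1.37, 0.047) and COL1A1 (-0.96, 0.0031) at 12 h and COL1A1 at 24 h (-1.47, 0.0021) were called under it.

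Counts were low for CCNE2, whose 3 counts in BaP 24 h replicate 1 equal 1.125 CPM.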
